A study of Homo sapiens with 9 samples.

Results

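FABP4, CD36 and 7 further genes of fatty acid handling were followed across 3 lines of human breast epithelial cells from the MCF-10A series. The 9 genes (FABP4, FABP5, CD36, PPARG, LPL, PLIN2, ANGPTL4, ACSL1 and CPT1A) are represented by 21 of the 54675 probe sets on the array, and all 21 probe sets annotated to these symbols were taken. Each of the 9 genes had at least 1 probe set that passed the filter on low signals, which left 12594 genes in all, and 18 of the 21 probe sets passed. FABP4 and CD36 were selected on the measurements themselves, because they had the 2 lowest MIV minus MIII differences in an earlier look at the same arrays. The other 7 genes were added as partners of the pathway with the same results known. The differences of the 9 genes between lines are therefore given as descriptions, with no p-value.

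The lines were MII (MCF-10AT1Kcl2, labelled carcinoma in situ), MIII (MCF-10A1h, labelled carcinoma) and MIV (MCF-10A1a, labelled metastatic carcinoma), each with 3 arrays labelled as biological replicates. As background, MCF-10A is a non-tumorigenic breast epithelial line, and the lines of the series derive from cells of it that received an activated HRAS, so that all 3 share that oncogene. Each stage is represented by 1 line. All lines were grown without further treatment in DMEM/F12 with horse serum, insulin, cholera toxin, epidermal growth factor and a hydrocortisone supplement. The study asked which genes are lost in the metastatic line. The labels do not say whether the replicates came from separate cultures, so errors and p-values measure only how far these arrays scatter, a scatter that may be technical. Values are MAS5 signals on a linear scale, and the pooled median of all signals, 69.3, is used below as a mark of low signal. Differences are on the scale of log2(signal + 18.3), which understates the changes of probe sets with low signals.

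Long-chain fatty acids reach cells from circulating lipoproteins, whose triglycerides are cut by lipoprotein lipase, and cross the membrane with the help of CD36. Inside the cell they are bound by fatty acid binding proteins, activated to acyl-CoA, and then stored in lipid droplets or oxidised in mitochondria. Fatty acids are also ligands of the PPAR nuclear receptors, and FABP4, CD36, LPL, PLIN2, ANGPTL4, ACSL1 and CPT1A are all reported PPAR target genes. FABP4 is best known from adipocytes, macrophages and capillary endothelium, and FABP5 from keratinocytes and other epithelia.

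PPAR and RXR receptors bind as pairs to a direct repeat of AGGTCA with 1 base between the copies, and promoter windows of the members were therefore searched for that repeat. RefSeq promoter windows (assembly GRCh38.p14, 250 bases before to 50 after an annotated start) were matched for 6 of the 9 genes, with 20 windows in all. No window was matched for FABP4, FABP5 or LPL, so their promoters were not searched. An exact AGGTCA, on either strand, was in 3 of the 20 windows and in 13.8% of the 35116 windows of the whole table. All 3 were PPARG windows, of which 1 held 2 copies and the other two overlap and share 1 copy. The repeat with at most 2 mismatches, on either strand, was in 2 of the 20 windows and in 2.97% of all windows, and neither of these 2 windows held an exact AGGTCA. These 2 windows lie at CD36 (1 of its 6 windows, chr7:80638266-80638565, plus strand) and at ACSL1 (1 of its 5 windows, chr4:184805504-184805803, minus strand). The ANGPTL4 window (chr19:8363905-8364204, plus strand) held neither motif and is shown beside them because ANGPTL4 shared with CD36 its higher signal in MIII. A match is a description of the letters in the window, and binding was not measured. The 3 windows follow, 5′ to 3′ in the direction of the gene, with the repeat in capitals.
CD36: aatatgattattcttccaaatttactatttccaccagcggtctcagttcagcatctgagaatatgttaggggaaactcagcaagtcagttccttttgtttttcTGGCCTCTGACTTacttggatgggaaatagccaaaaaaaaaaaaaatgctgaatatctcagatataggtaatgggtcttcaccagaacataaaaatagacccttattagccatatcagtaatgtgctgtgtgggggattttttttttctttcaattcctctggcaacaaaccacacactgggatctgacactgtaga
ACSL1: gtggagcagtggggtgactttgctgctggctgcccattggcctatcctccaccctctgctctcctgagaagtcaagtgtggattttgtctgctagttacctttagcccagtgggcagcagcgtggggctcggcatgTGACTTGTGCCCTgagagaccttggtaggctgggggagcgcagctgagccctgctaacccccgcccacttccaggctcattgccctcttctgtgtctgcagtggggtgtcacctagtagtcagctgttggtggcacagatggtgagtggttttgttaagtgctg
ANGPTL4: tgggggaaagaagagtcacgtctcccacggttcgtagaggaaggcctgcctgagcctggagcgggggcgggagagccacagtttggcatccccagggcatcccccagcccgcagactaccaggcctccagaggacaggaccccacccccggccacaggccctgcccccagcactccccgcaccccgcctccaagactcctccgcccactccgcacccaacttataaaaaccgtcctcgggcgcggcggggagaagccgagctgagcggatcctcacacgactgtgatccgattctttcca

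The 2 fatty acid binding proteins among the members both had their highest signal in MIII, with very different contrast. FABP4, a cytosolic carrier that delivers fatty acids within the cell, was read by 2 probe sets. On the brighter one its signals were 82.3, 59.1 and 57.6 in MII, 15863.2, 15713.0 and 15414.5 in MIII, and 4.2, 2.6 and 28.1 in MIV. MIII therefore stood far above both other lines, all 3 MIV arrays lay under the pooled median, and the arrays of the 3 lines did not overlap. The log2 difference was -9.13 ± 0.24 (SE) for MIV minus MIII, a 561-fold lower value on the offset scale, and 7.55 ± 0.24 for MIII minus MII, a 187-fold higher one. Since the low signals lie near or under the offset, the size of these folds is set by it in part: the MIV minus MIII value ranged between -10.91 and -6.54 over the alternatives. Against MII, FABP4 in MIV was 3.00-fold lower (-1.59 ± 0.24). With the pooled median as the offset that last difference shrinks to -0.75, since MIV lies near the low end of the signals and MII near the pooled median. Among the 12594 genes the FABP4 value for MIV minus MIII ranked 1st from the bottom, and its value for MIII minus MII ranked 3rd from the top.

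The dimmer FABP4 probe set ordered the lines in the same way. It gave 30.8, 54.6 and 99.4 in MII, 523.2, 483.0 and 508.3 in MIII, and 32.8, 8.6 and 10.2 in MIV. MIII again stood above every array of the other lines, whereas MIV and MII overlapped. Its log2 differences were -3.94 ± 0.33 for MIV minus MIII, -1.14 ± 0.33 for MIV minus MII and 2.80 ± 0.33 for MIII minus MII, smaller than on the brighter probe set.

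FABP5, the epidermal relative of FABP4, was bright on every array. Its signals were 13474.2, 16170.1 and 15107.0 in MII, 24504.8, 24881.5 and 25717.0 in MIII, and 12991.9, 13868.3 and 12858.5 in MIV. MIII was above both other lines without overlap, and the ranges of MIV and MII overlapped. The log2 differences were -0.92 ± 0.06 for MIV minus MIII, -0.17 ± 0.06 for MIV minus MII and 0.75 ± 0.06 for MIII minus MII, all short of the 2-fold mark.

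CD36, a scavenger receptor that takes up long-chain fatty acids and oxidised lipoproteins, was read by 5 probe sets. The brightest gave 28.1, 14.1 and 13.3 in MII, 4703.7, 4358.7 and 5060.0 in MIII, and 4.3, 4.4 and 1.9 in MIV. Only MIII lay above the pooled median, on all 3 of its arrays. The log2 difference for MIV minus MIII was -7.76 ± 0.20, a 216-fold lower value on the offset scale and the 2nd lowest of all genes, with a range of -10.07 to -4.61 over the alternatives. For MIII minus MII it was 7.03 ± 0.20, a 130-fold higher value and the 6th highest of all genes. MIV and MII did not overlap either, but their difference of -0.73 ± 0.20 lies between signals that are both low.

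On 3 of the other 4 CD36 probe sets MIII was again above both other lines. The second gave 29.1, 11.2 and 49.5 in MII, 2753.2, 2461.6 and 2924.6 in MIII, and 1.0, 10.0 and 33.8 in MIV. The third gave 53.8, 5.9 and 26.5 in MII, 1291.9, 1338.8 and 1465.1 in MIII, and 1.3, 4.8 and 32.5 in MIV. On both, MIII stood alone above the pooled median, with MIV minus MIII differences of -6.48 ± 0.34 and -5.60 ± 0.39. The fourth, whose suffix marks probes that can bind other transcripts, gave 300.1, 297.6 and 182.4 in MIII, with a difference of -2.59 ± 0.34 between MIV and MIII. The fifth did not pass the filter, and its 9 signals, 7.7 to 54.4, overlapped between all lines.

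**Figure D1:**
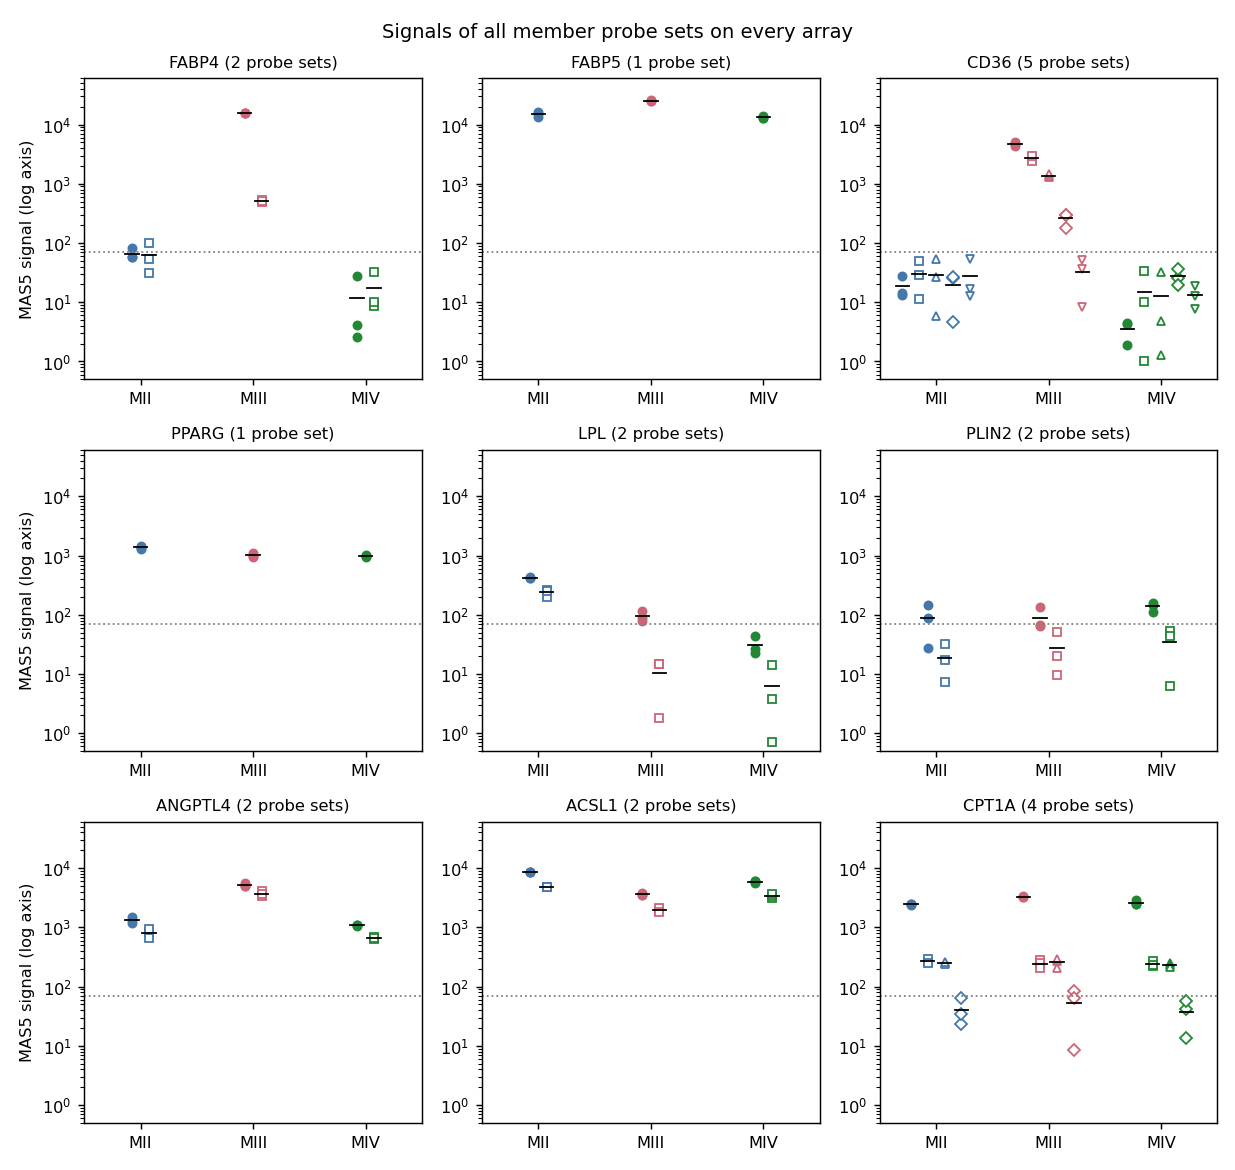
MAS5 signals of all 21 probe sets of the 9 genes on each of the 9 arrays, on a log axis, with 1 panel per gene and the lines MII, MIII and MIV side by side. Each symbol is 1 array, each symbol shape is 1 probe set, filled circles are the probe set that stands for the gene, black bars are means of 3 arrays and the dotted line is the pooled median of 69.3. FABP4 and CD36 exceed the dotted line by a wide margin only in MIII, while FABP5, PPARG, ANGPTL4, ACSL1 and the brightest CPT1A probe set lie above it in all lines.

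LPL, the secreted lipase that frees fatty acids from lipoprotein triglycerides, had its highest signal in MII and not in MIII. Its brighter probe set gave 431.6, 411.5 and 411.1 in MII, 117.9, 78.0 and 87.9 in MIII, and 22.4, 44.5 and 26.1 in MIV. The 3 lines did not overlap, and the order was MII, then MIII, then MIV. The log2 differences were -1.21 ± 0.23 for MIV minus MIII, -3.17 ± 0.23 for MIV minus MII and -1.97 ± 0.23 for MIII minus MII. The value for MIV minus MII was the 66th lowest of the 12594 genes. The second LPL probe set gave 203.3, 259.3 and 256.5 in MII, 14.8, 1.8 and 14.6 in MIII, and 0.7, 3.8 and 14.4 in MIV. It separated MII from both other lines, but MIV and MIII overlapped on it, with a difference of -0.22 ± 0.36. The step between MIV and MIII thus rests on 1 of the 2 LPL probe sets, and the mean of both gives -0.72.

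ANGPTL4, a secreted protein that inhibits lipoprotein lipase, was highest in MIII. Its first probe set gave 1339.1, 1492.3 and 1182.1 in MII, 5625.0, 4962.1 and 5009.3 in MIII, and 1053.8, 1081.5 and 1098.0 in MIV. Its second gave 820.7, 924.7 and 654.6 in MII, 4101.9, 3415.8 and 3630.9 in MIII, and 639.7, 700.1 and 665.5 in MIV. On the first probe set the lines did not overlap, and on the second MIV overlapped with MII. The log2 differences of the first were -2.25 ± 0.08 for MIV minus MIII, -0.30 ± 0.08 for MIV minus MII and 1.95 ± 0.08 for MIII minus MII, and those of the second were -2.44 ± 0.11, -0.24 ± 0.11 and 2.20 ± 0.11 in the same order. In MIII the lipase was thus lower and its inhibitor higher than in MII.

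PPARG, the PPAR receptor that drives adipocyte differentiation, was measured by 1 probe set. It gave 1308.1, 1459.0 and 1360.0 in MII, 952.8, 1104.3 and 998.0 in MIII, and 989.6, 949.8 and 1027.6 in MIV. MII was highest and did not overlap with the other lines, and MIV and MIII overlapped. The log2 differences were -0.04 ± 0.08 for MIV minus MIII, -0.47 ± 0.08 for MIV minus MII and -0.43 ± 0.08 for MIII minus MII. PPARG thus did not share the high signal of FABP4 and CD36 in MIII.

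ACSL1, which activates long-chain fatty acids to acyl-CoA, had its lowest signal in MIII. Its first probe set gave 8473.2, 8474.0 and 8491.3 in MII, 3573.6, 3573.9 and 3830.6 in MIII, and 6093.6, 6006.0 and 5676.3 in MIV. The 3 lines did not overlap, with log2 differences of 0.69 ± 0.05 for MIV minus MIII, -0.52 ± 0.05 for MIV minus MII and -1.21 ± 0.05 for MIII minus MII. The second ACSL1 probe set gave 0.78 ± 0.07, -0.52 ± 0.07 and -1.31 ± 0.07 for the same differences.

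CPT1A, which forms acylcarnitine for import into mitochondria, differed little. Its brightest probe set gave 2489.8, 2433.7 and 2379.4 in MII, 3195.0, 3420.2 and 3229.8 in MIII, and 2502.1, 2486.7 and 2868.9 in MIV. MIII was above both other lines without overlap, by 0.43 ± 0.06 against MII, and MIV lay 0.33 below MIII on the same log2 scale (-0.33 ± 0.06). The 2 dimmer probe sets that passed the filter, with signals between 203.2 and 297.0, overlapped between lines, and their MIV minus MIII differences were -0.01 ± 0.15 and -0.15 ± 0.15. The fourth CPT1A probe set did not pass the filter, with 9 signals between 8.5 and 84.2.

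PLIN2, a coat protein of lipid droplets, was measured poorly. Its brighter probe set, whose suffix also marks probes that can bind other transcripts, gave 88.1, 27.7 and 146.6 in MII, 67.0, 65.3 and 136.9 in MIII, and 146.9, 113.7 and 160.2 in MIV. The lines overlapped, with a log2 difference of 0.60 ± 0.40 for MIV minus MIII and 0.76 ± 0.40 for MIV minus MII. The second value becomes 0.25 without MII replicate 2 and 1.17 without MII replicate 3. The other PLIN2 probe set did not pass the filter, and all 9 of its signals (6.3 to 52.3) lay under the pooled median.

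All genes were sorted by 1 calling rule, a limma adjusted p under 0.05 and at least a 2-fold difference. For the 9 members, whose values were known when they were chosen, it is a description of size and scatter and not a test. CD36 passed the filter only through its MIII arrays. FABP4 needed its MIII arrays as well, since 1 MII array and 0 MIV arrays of its brighter probe set lay over the pooled median. By the calling rule FABP4, CD36, LPL and ANGPTL4, 4 of the 9, fell in the class lower in MIV than in MIII, and none in the class higher in MIV. Among all 12594 genes tested in that comparison, 7.79% were called lower and 4.95% higher in MIV. The arrays of the lines did not overlap for 7 of the 9 genes, against 58.8% of all genes. The median log2 difference of the 9 genes was -0.92 and that of all genes was -0.012. Against MII, 2 of the 9 genes, FABP4 and LPL, were called lower in MIV and none higher, where 5.18% of all genes were called lower and 2.96% higher. The arrays did not overlap for 6 of the 9, against 50.7% of all genes, with a median of -0.47 beside -0.027. In MIII against MII, FABP4, CD36 and ANGPTL4 were called higher and LPL and ACSL1 lower, where 6.17% of all genes were called higher and 5.55% lower. The arrays did not overlap for 8 of the 9, against 55.3% of all genes, with a median of 0.43 beside -0.016. These counts describe genes chosen on the same values, and nothing is read from their distance to the shares of all genes. The 3 comparisons share arrays, so each comparison's values stand side by side and not as independent observations.

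**Figure D2:**
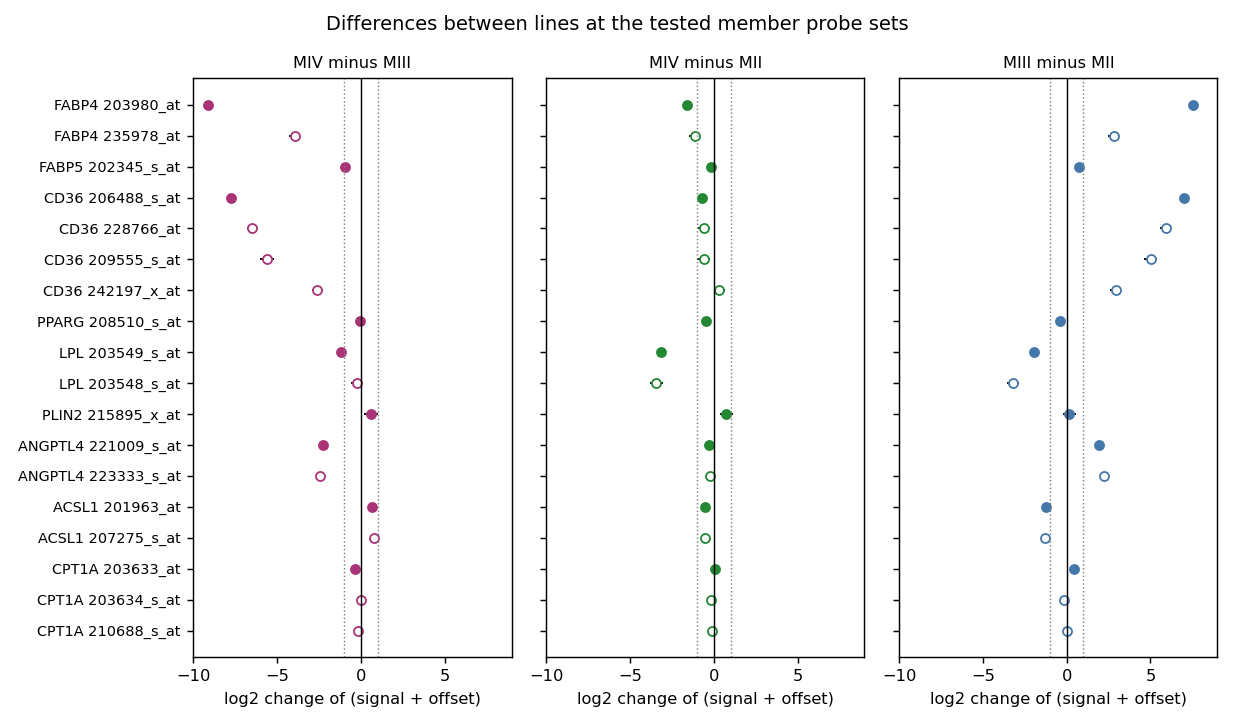
Log2 differences on the signal plus offset scale at the 18 probe sets of the 9 genes that passed the filter, for MIV minus MIII, MIV minus MII and MIII minus MII, with bars of 1 standard error. Filled circles are the probe sets that stand for a gene and dotted lines mark a 2-fold difference. FABP4 at -9.13 and CD36 at -7.76 lie farthest left in MIV minus MIII, and LPL at -3.17 among the filled circles in MIV minus MII.

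The other genes of the pathway were taken from lists of 131 genes in 9 groups, of which 94 were tested. In MIV against MIII, 5 of these 94 genes were called higher in MIV (5.32%) and 11 lower (11.7%), with a median log2 difference of -0.08. In MIV against MII, 3 were called higher (3.19%) and 7 lower (7.45%), with a median of -0.06. In MIII against MII, 9 were called higher and 9 lower (9.57% each), with a median of 0.00. FABP6, PLIN1 and ABCG1 passed the filter through the arrays of a single line, so that their calls against that line were in part fixed by the filter. Without these 3 genes, 5 were called higher and 9 lower for MIV against MIII, 3 and 5 for MIV against MII, and 8 and 8 for MIII against MII. These counts still hold genes that needed 1 line to pass although an array of another line may lie over the pooled median. PPARGC1A needed its MIII arrays in this way, and ABCA1 its MII arrays. The shares of all genes for each comparison are those given above, 4.95% called higher and 7.79% lower for MIV against MIII, 2.96% and 5.18% for MIV against MII, and 6.17% and 5.55% for MIII against MII. The difference between the shares was not tested. The adjusted p-values below are from limma with Benjamini-Hochberg adjustment over all 12594 genes.

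Of the other fatty acid binding proteins, 8 were listed and 1 was tested, FABP6, the bile acid carrier of the ileum. Its signals averaged 89.5 ± 15.3 in MII, 39.4 ± 18.1 in MIII and 2.5 ± 0.1 in MIV, where errors of mean signals here and below are SDs over 3 arrays. FABP6 fell in MIV against both other lines, with log2 differences of -1.42 ± 0.39 against MIII (adjusted p = 0.00758) and -2.37 ± 0.39 against MII (adjusted p = 0.000257). The mean of its probe sets gives -0.40 and -0.57, without a call. FABP6 passed the filter only through its MII arrays, which makes a difference from that line likely beforehand. Its means in MIII and MIV both lie under the pooled median, so the MIV minus MIII difference is one between low signals. With the pooled median as offset that difference is -0.59, without a call. FABP1, FABP2, FABP3, FABP7 and PMP2 did not pass the filter in any line. FABP9 and FABP12 had no probe set annotated to them alone, so the family was not covered in full. Within the measured part of it, FABP4 exceeded the pooled median by a wide margin only in MIII. FABP5 was bright in all 3 lines and highest in MIII.

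Among genes of fatty acid and lipoprotein uptake, 12 of 15 were tested, and 2 rose and 2 fell in MIV against MIII. LIPG, the endothelial lipase, averaged 1825.6 ± 98.7 in MIV and 432.6 ± 46.1 in MIII, a rise of 2.04 ± 0.08 (adjusted p = 1.5e-10). SLC27A2, a very long-chain acyl-CoA synthetase and transport protein, averaged 650.6 ± 64.5 in MIV and 167.3 ± 29.4 in MIII, a rise of 1.86 ± 0.13 (adjusted p = 5.08e-08). Both fell in MIII against MII, LIPG by 1.66 ± 0.08 (adjusted p = 1.4e-09) and SLC27A2 by 1.85 ± 0.13 (adjusted p = 5.66e-08). LRP1, an endocytic lipoprotein receptor, ran in the opposite direction at low signals, with 38.6 ± 27.1 in MIV and 182.8 ± 15.6 in MIII (-1.96 ± 0.36, adjusted p = 0.000431), and -0.78 from the mean of its probe sets, without a call. SLC27A6, a relative of SLC27A2, fell in MIV to 24.4 ± 17.3, against 98.7 ± 16.0 in MIII and 91.6 ± 18.4 in MII (adjusted p = 0.002 and 0.00423). SLC27A1, the fatty acid transport protein of muscle and fat, averaged 147.8 ± 31.5 in MII, 323.2 ± 20.9 in MIII and 645.4 ± 38.5 in MIV. It rose in MIV against MII by 2.01 ± 0.14 (adjusted p = 7e-08). Its rise in MIII against MII (1.05 ± 0.14, adjusted p = 2.89e-05) was lost with 3 alternatives, and its MIV minus MIII difference (0.96 ± 0.14) was not called.

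Acyl-CoA formation had 8 tested genes of 15, with 1 called in each direction in MIV against MIII. ACSS2, which makes acetyl-CoA from acetate, averaged 1130.2 ± 93.2 in MII, 525.8 ± 27.6 in MIII and 4788.3 ± 611.1 in MIV. It rose in MIV by 3.14 ± 0.09 against MIII (adjusted p = 5.24e-12) and by 2.06 ± 0.09 against MII (adjusted p = 7.2e-10). ACSL5, a long-chain acyl-CoA synthetase like ACSL1, averaged 84.7 ± 20.2 in MII, 443.5 ± 78.6 in MIII and 80.7 ± 4.0 in MIV. ACSL5 fell by 2.21 ± 0.20 in MIV against MIII (adjusted p = 5.6e-07) and rose by 2.17 ± 0.20 in MIII against MII (adjusted p = 7.48e-07). The order of the lines for ACSL5 was thus unlike that for ACSL1, which was lowest in MIII.

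Triglyceride synthesis and lipid droplet genes had 16 tested of 20, of which 5 fell and 1 rose in MIV against MIII, and 4 rose and 0 fell in MIII against MII. Of all genes, 7.79% were called lower and 4.95% higher in the first comparison, and 6.17% higher and 5.55% lower in the second. PLIN1, the droplet coat protein of adipocytes, averaged 13.6 ± 1.8 in MII, 96.7 ± 11.6 in MIII and 7.7 ± 4.1 in MIV. It fell by 2.15 ± 0.38 in MIV against MIII (adjusted p = 0.000323) and rose by 1.85 ± 0.38 in MIII against MII (adjusted p = 0.00125), but PLIN1 passed the filter only through MIII, which makes a difference from that line likely beforehand. CIDEC, which fuses droplets in adipocytes, averaged 157.9 ± 28.1 in MII, 412.1 ± 31.2 in MIII and 122.1 ± 5.1 in MIV, with a difference of -1.61 ± 0.16 for MIV minus MIII (adjusted p = 1.19e-06). GPAM, which starts glycerolipid synthesis, fell by 1.66 ± 0.09 in MIV against MIII (adjusted p = 3.35e-09) and rose by 1.68 ± 0.09 in MIII against MII (adjusted p = 3.16e-09). CIDEB fell by 1.89 ± 0.37 in MIV against MIII (adjusted p = 0.000695), and its rise in MIII against MII (1.02 ± 0.37, adjusted p = 0.0372) was lost under 9 of 18 alternatives. The remaining 10 tested genes of the list were not called in MIV against MIII, and its median was -0.14. LPIN1, a phosphatidate phosphatase, was the gene called higher, with a rise in MIV of 1.93 ± 0.05 against MIII (adjusted p = 3.57e-12) and of 1.12 ± 0.05 against MII (adjusted p = 1.79e-09).

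Lipolysis had 7 tested genes of 8, with 1 called in MIV against MIII, 2 called in MIII against MII and 0 called between MIV and MII. MGLL, the lipase that frees the last fatty acid from monoglycerides, averaged 3493.7 ± 376.7 in MII, 486.1 ± 34.5 in MIII and 3024.1 ± 267.6 in MIV. MGLL rose by 2.59 ± 0.09 in MIV against MIII (adjusted p = 2.71e-11) and fell by 2.80 ± 0.09 in MIII against MII (adjusted p = 1.31e-11). PNPLA3, a droplet lipase homologue, was lower in MIII than in MII by a margin close to the 2-fold mark (-1.02 ± 0.09, adjusted p = 4.28e-07). The list's median was 0.82 in MIV against MIII and -0.78 in MIII against MII.

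Mitochondrial beta-oxidation, with 20 tested genes of 22, had 1 call, in MIV against MII, and 0 in the other comparisons. Its median was 0.06 for MIV minus MIII, 0.00 for MIV minus MII and -0.02 for MIII minus MII. The called gene was SLC22A5, the carnitine transporter, at 861.6 ± 88.2 in MIV and 1862.5 ± 55.7 in MII (-1.10 ± 0.09, adjusted p = 2.29e-07). Peroxisomal oxidation, with 9 tested genes of 14, had 0 calls in all 3 comparisons. CPT1A, the entry step of the same pathway, also stayed under 2-fold in each comparison.

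Among PPAR and RXR receptors and their cofactors, 12 of 15 genes were tested. PPARGC1A, a coactivator of PPAR receptors, averaged 64.2 ± 21.6 in MII, 194.0 ± 28.8 in MIII and 10.6 ± 8.0 in MIV. It passed the filter only with its MIII arrays, which makes a difference from that line likely beforehand. It fell by 2.91 ± 0.32 in MIV against MIII (adjusted p = 3.9e-06; -4.45 to -1.15 over the alternatives, all with a call) and rose by 1.38 ± 0.32 in MIII against MII (adjusted p = 0.0027), the rise being lost with 3 alternatives. PPARD, the broadly expressed PPAR receptor, averaged 807.1 ± 103.3 in MIII and 1837.6 ± 67.5 in MII, a difference of -1.18 ± 0.10 (adjusted p = 3.87e-07). PPARA was not called in any comparison, with 431.2 ± 35.0 in MII, 233.8 ± 15.4 in MIII and 353.1 ± 51.8 in MIV. RXRA, the usual partner of PPAR receptors, was not called either, with 2188.7 ± 358.3 in MII, 3303.8 ± 442.6 in MIII and 1649.5 ± 136.3 in MIV. PPARA and RXRA are named here after their values were seen.

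Of 17 further genes reported as PPAR targets, 12 were tested, and 2 of them fell in MIV against MIII. Against MII, 3 fell in MIV, and 2 rose and 3 fell in MIII. PDK4, which restrains glucose oxidation, averaged 658.4 ± 38.0 in MII, 3009.2 ± 96.8 in MIII and 595.0 ± 67.7 in MIV. It fell by 2.31 ± 0.09 in MIV against MIII (adjusted p = 5.72e-11) and rose by 2.16 ± 0.09 in MIII against MII (adjusted p = 1.16e-10). CIDEC, described above, was the other one. ABCG1 and ABCA1, which export cholesterol, and AQP3, a glycerol and water channel, fell in both MIV and MIII against MII. The MIV minus MII difference was -2.56 ± 0.25 for ABCG1 (adjusted p = 2e-06), -2.25 ± 0.11 for AQP3 (adjusted p = 1.78e-09) and -1.27 ± 0.34 for ABCA1 (adjusted p = 0.00881). ABCG1 passed the filter only through its MII arrays and ABCA1 only with them, which makes their differences from MII likely beforehand. AQP3 did not need its MII arrays, and its MIII minus MII difference was -1.74 ± 0.11 (adjusted p = 1.47e-08). Reported PPAR target genes thus moved in both directions in MIII against MII. Of the calls given above, at least 1 alternative ended those of SLC27A6, SLC22A5, PNPLA3, PPARD, ABCA1 and, in MIII against MII, ABCG1 and PLIN1.

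**Figure D3:**
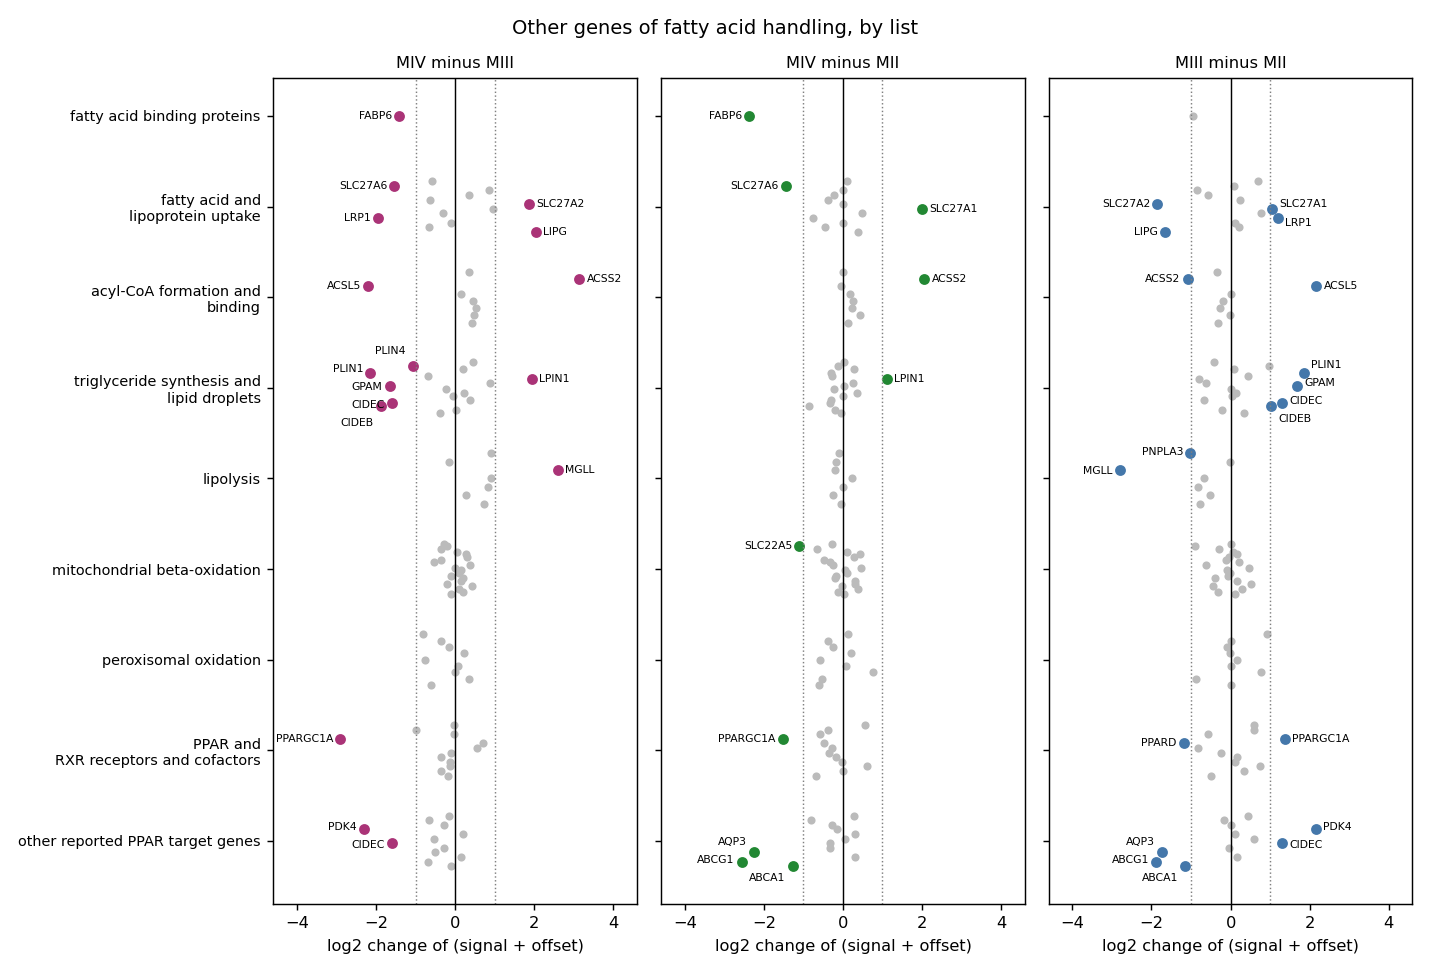
Log2 differences on the signal plus offset scale of the 94 tested genes of 9 pathway lists, for MIV minus MIII, MIV minus MII and MIII minus MII. Each point is 1 gene, coloured and named where it passed an adjusted p under 0.05 and 2-fold, grey otherwise, and dotted lines mark 2-fold. Mitochondrial beta-oxidation and peroxisomal oxidation hold 1 named point in all 3 panels, SLC22A5, while ACSS2 at 3.14 and PPARGC1A at -2.91 are the outermost points of MIV minus MIII.

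Since FABP4, CD36 and LPL mark adipocytes, endothelium and macrophages, marker lists of these cell types were set beside the members. The adipocyte hormones ADIPOQ and LEP, as well as CFD and GPD1, lay under the pooled median on all 9 arrays, whereas PLIN1, PLIN4 and CIDEC were called lower in MIV than in MIII. The other 2 tested adipocyte markers did not follow: LIPE averaged 472.6 ± 40.5 in MII, 294.8 ± 42.7 in MIII and 561.7 ± 38.6 in MIV, and CEBPA 372.6 ± 27.7 in MII, 258.2 ± 24.1 in MIII and 227.2 ± 50.2 in MIV, and neither was called. The summed signal of the 9 adipocyte markers was 1094.9 to 1255.1 in MII, 1258.7 to 1471.1 in MIII and 1051.6 to 1164.0 in MIV. Of 8 endothelial markers PECAM1 alone exceeded the median, with 173.9 ± 48.0 in MII, 250.8 ± 33.1 in MIII and 306.0 ± 50.8 in MIV, and the sums of the 8 were 196.2 to 371.1 in MII, 330.8 to 394.1 in MIII and 314.2 to 430.2 in MIV. Of 7 macrophage markers PTPRC, CD163, TYROBP and LYZ stayed under the median on all arrays, and the sum was highest in MII (1738.1 to 1885.2), against 763.3 to 892.2 in MIII and 572.4 to 712.6 in MIV. Most of that sum was CD14 (1489.6 in MII, 593.6 in MIII and 322.7 in MIV), while CSF1R was highest in MIV (135.0 in MII, 82.5 in MIII and 214.7 in MIV) and was called higher there than in MIII.

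Of 8 fibroblast markers 4 were, like FABP4 and CD36, called higher in MIII than in MII and lower in MIV than in MIII, and 4 were not. The summed signal of the 8 was 447.1 to 499.2 in MII, 4524.8 to 4809.2 in MIII and 433.3 to 442.4 in MIV, and COL3A1, DCN, LUM and THY1 were called higher in MIII than in MII and lower in MIV than in MIII. COL3A1 and LUM passed the filter only through MIII, so their calls were built into it. THY1 needed its MIII arrays as well, with 1 MII array and 0 MIV arrays over the pooled median. COL1A1 averaged 243.2 ± 33.2 in MII, 213.4 ± 39.2 in MIII and 222.5 ± 35.2 in MIV, and COL1A2, PDGFRA and PDGFRB stayed under the median on all arrays. All 7 breast epithelial markers on the array exceeded the median on all 9 arrays, with sums of 116151.4 to 122256.7 in MII, 72317.5 to 73856.7 in MIII and 117473.4 to 127983.8 in MIV. Of these 7, 3 were called lower and 0 higher in MIII than in MII, and 2 were called higher and 1 lower in MIV than in MIII. CDH1, the epithelial cadherin, averaged 12054.8 ± 304.1 in MII, 1304.7 ± 32.7 in MIII and 7287.8 ± 149.4 in MIV, and KRT5, a basal keratin, 25794.0 ± 922.4 in MII, 26308.5 ± 677.1 in MIII and 25068.8 ± 669.7 in MIV. EPCAM averaged 17232.9 ± 230.1 in MII, 3737.2 ± 74.5 in MIII and 18773.5 ± 2385.0 in MIV. KRT14 was lowest in MIV, with 2155.2 ± 85.4 in MII, 957.0 ± 84.5 in MIII and 137.0 ± 20.4 in MIV. In RNA of whole cultures, fewer cells of a type and less RNA per cell cannot be told apart, and the part of these marker changes in the FABP4 and CD36 values was not tested.

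The genes with profiles nearest to FABP4 and CD36 were found by the Euclidean distance of log2(signal + 18.3) over the 9 arrays, each gene centred on its own mean. For FABP4 these were COL6A1 (distance 2.35), IGFBP4 (2.91), ENPP2 (3.25), SRGN (3.26) and POSTN (3.82), and for CD36 the same 5 genes with SRGN nearest at a distance of 1.46. FABP4 and CD36 themselves lay 2.00 apart. FABP4 was therefore nearer to CD36 than to any of the 5, but CD36 was nearer to SRGN, COL6A1 (1.55) and IGFBP4 (1.69) than to FABP4. COL6A1, a collagen chain, averaged 62.0 in MII, 9274.6 in MIII and 43.0 in MIV. SRGN, a granule proteoglycan, averaged 28.4 ± 16.5 in MII, 6417.1 ± 122.2 in MIII and 37.4 ± 14.8 in MIV. POSTN, a matrix protein, averaged 18.7 ± 12.3 in MII, 1644.6 ± 14.9 in MIII and 2.7 ± 1.6 in MIV. All 5 share with FABP4 and CD36 a mean over the pooled median in MIII and under it in MII and MIV. Since they were picked for nearness on the same 9 arrays, that likeness restates how they were chosen. With the mean of all probe sets per gene, 2 of the 5 remained among the nearest of FABP4 and 1 of the 5 among those of CD36.

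**Figure D4:**
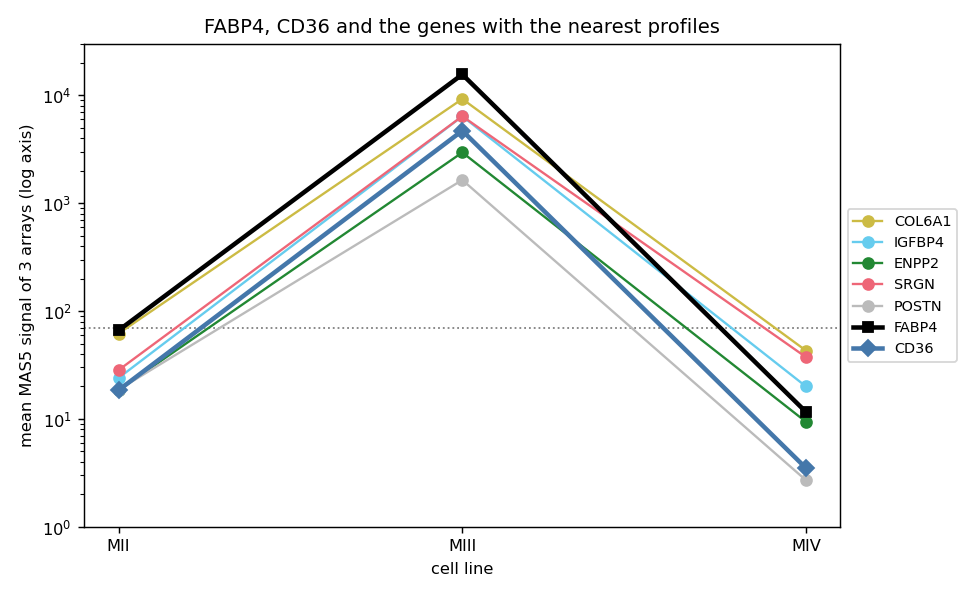
Mean MAS5 signals of 3 arrays, on a log axis, in MII, MIII and MIV for FABP4 (black squares), CD36 (blue diamonds) and the 5 genes with the nearest profiles (coloured circles). The dotted line is the pooled median of 69.3, and all 7 genes lie above it in MIII, at 1644.6 to 15663.6, and below it in MII and MIV.

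The protein-coding genes beside FABP4 and CD36 in genome order (RefSeq, 4 on each side, chosen after the values were seen) did not follow them by a like amount. Beside FABP4, 4 neighbours were tested, including FABP5. Of these, PAG1 was called, with 268.5 ± 18.1 in MII, 269.2 ± 27.6 in MIII and 101.6 ± 26.3 in MIV (-1.28 ± 0.18 for MIV against either line, adjusted p = 4.47e-05 against MIII and 7.24e-05 against MII, and -0.99, without a call, with the pooled median as offset). IMPA1 averaged 2607.8 ± 100.4 in MII, 3983.5 ± 275.9 in MIII and 2844.3 ± 171.8 in MIV, and was not called. Beside CD36, SEMA3C, the next gene on one side, averaged 2725.2 ± 68.7 in MII, 5136.8 ± 335.1 in MIII and 1690.3 ± 75.2 in MIV, with a log2 difference of -1.59 ± 0.06 for MIV minus MIII (adjusted p = 7.92e-11). GNAT3, the next gene on the other side, did not pass the filter. GNAI1 rose in both MIV and MIII against MII, by 1.14 ± 0.10 (adjusted p = 9.56e-07) and 1.04 ± 0.10 (adjusted p = 1.59e-06), close to the 2-fold mark, and the mean of its probe sets gives 0.91 and 0.97, without a call. PCLO fell by 1.11 ± 0.19 in MIV against MIII (adjusted p = 0.000223), which is -0.99 without MIV replicate 3 and -0.24 with the mean of its probe sets, in both cases without a call.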

How the data were processed

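Total RNA of MII, MIII and MIV cells was extracted with Trizol and hybridised as biotin-labelled cRNA to Affymetrix arrays, per the labels' protocols. The deposited intensities are linear MAS5 signals, 1 for each probe set on each array, and the submitters' processing notes name MAS5 without a version. Detection calls were not used here. The trimmed mean was 500.07 on every array and array medians were 64.7 to 74.9, so no further scaling was applied. The number of arrays limits the precision.

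Probe sets were named from the platform annotation, which gives 1 gene for 41091 probe sets, several for 1801 and none for 11721, with 62 controls. Signals were taken as log2(signal + 18.3), the offset being the pooled 25th percentile. Genes with at least 3 of 9 arrays over the pooled median of 69.3 were kept, each by its probe set of highest mean signal, and the same fit was made with 1 row for each of the 29597 probe sets that passed. A group-means model over all 9 arrays (limma 3.58.1, R 4.3.3, intensity trend, 6 residual degrees of freedom) gave differences, standard errors and Benjamini-Hochberg adjusted p-values. The fit was tested on simulated data. A call is an adjusted p under 0.05 and at least 2-fold.

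Members, gene lists and neighbours were chosen with earlier results of these data known. Of each pathway list and comparison the called genes are named, up to the 4 with the largest change, and for FABP4 and CD36 the 5 nearest profiles. Same-numbered replicates of different lines correlated between -0.039 and 0.039 in their deviations from the line means, so the numbers do not pair the arrays. Alternatives were offsets, normalizations, filters, probe set choice, fit options, the replicate block and leaving out each array.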

Additional observations from a re-analysis of the deposited data

How the results depend on the processing

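Of the 21 alternatives, 18 to 20 gave a value for each member difference, and none of the differences that passed the calling rule changed sign in them. The MIV minus MIII value ranged between -10.91 and -6.54 for FABP4 and between -10.07 and -4.61 for CD36. Calls of single members that changed were LPL in MIV against MIII (-0.71 with the pooled median as offset, -0.72 with the mean of its probe sets), FABP4 in MIV against MII (-0.75 with that offset), CD36 in MIV against MII (called at -2.08 with an offset of 1) and PLIN2 in MIV against MII (called at 1.17 without MII replicate 3). The number of members called was 4 for MIV against MIII, 2 for MIV against MII and 5 for MIII against MII. In that order it became 2, 1 and 3 with probe sets without a suffix, since fewer members have such probe sets, and 7, 7 and 8 with no fold minimum. In MIV against MII it was 1 with the pooled median as offset and 1 with a filter at the pooled 75th percentile. The number of pathway genes called, 16, 10 and 18 in the same order, became 7, 5 and 10 with that filter, which tests fewer genes, and 61, 46 and 56 with no fold minimum. It was 6 in MIV against MII with the mean of all probe sets and 11 in MIII against MII with the pooled median as offset, and the cause was not tested. The fit with a replicate block called 4, 2 and 5 members and 16, 10 and 18 pathway genes, so it changed no count. The 48 called differences of the named pathway and neighbour genes were each refitted under the alternatives. Counted over all pairs of a difference and an alternative, 878 kept the call, 47 lost it and 0 reversed. The 47 losses were spread over many of the 48 differences, and CIDEB in MIII against MII alone had 9. MIV replicate 3 had a hybridisation control (bioB) mean of 2619.8, where the other arrays had 822.9 to 1283.3, and without it 4, 2 and 5 members were called. Differences between signals that both lie under the pooled median depend on the offset and are limited by signal over background.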
